A study of Mus musculus with 17 samples.

Results

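Zbtb20, Zbtb32, Zbtb38, Zbtb18 and Zbtb7a encode zinc finger factors with a BTB domain, and their chromatin accessibility was followed by ATAC-seq from naïve B cells (nB) through germinal center B cells (GCB) to bone marrow plasma cells (BMPC). ATAC-seq cuts open chromatin with a transposase, so reads pile up where DNA is accessible. Of the 66177 accessible regions of the series, 77 were assigned to these 5 genes, because the table gives one of them as the nearest transcript or the nearest transcription start. Zbtb20 had 45 of the regions, Zbtb38 had 15, Zbtb7a had 7, Zbtb18 had 6 and Zbtb32 had 4. Zbtb20 ranked 17 among 14775 genes with the 43 regions for which it was the nearest transcript, where the median gene had 2.

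Proteins of this family use the BTB domain to bind one another and to recruit corepressors, and their zinc fingers to read DNA, and most are known as transcriptional repressors. The family includes Bcl6, which sustains the germinal center program and is opposed by Prdm1, the factor that drives plasma cell differentiation. Zbtb20 is known to support the survival of long-lived plasma cells, Zbtb32 limits plasma cell responses on recall, Zbtb38 binds methylated CpG sites, Zbtb18 is a repressor best known from neurons and muscle, and Zbtb7a restrains Notch signaling in B cells.

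The mice were Dnmt3-deficient (KO; Dnmt3afl/fl Dnmt3bfl/fl with Cre) or Dnmt3-sufficient littermates (C; Dnmt3afl/fl Dnmt3bfl/fl without Cre), so both genotypes carried the floxed alleles, and all were of a mixed B6;129S4 background and 8 to 12 weeks old. The Cre recombinase was active in B lineage cells and removes loxP-flanked catalytic exons of the DNA methyltransferases Dnmt3a and Dnmt3b. nB (B220+ GL7- Fas-) were sorted from lymph nodes of mice not immunized, whereas GCB (B220+ Fas+ GL7+, binding phycoerythrin) were sorted from lymph nodes and CD138+ BMPC from bone marrow 30 days after immunization with phycoerythrin. C mice gave 3 nB, 2 GCB and 3 BMPC libraries with values, and KO mice gave 2, 4 and 2. Each GCB library pooled 2 mice, and each nB or BMPC library came from 1 mouse. All nB libraries were from males and all BMPC libraries from females, so sex, tissue, immunization and cell type cannot be told apart between these groups. The GCB mice were of both sexes. BMPC were sorted by CD138 and not by binding phycoerythrin. A step from GCB to BMPC below thus compares populations of the same day and does not follow a lineage in time. Another KO BMPC library was not analysed here. The table has regions at the starts of Dnmt3a and Dnmt3b but these do not check the loss of the catalytic exons, and mean accessibility at the Dnmt3a start was 22.8 and 23.2 in C and KO nB, 16.4 and 16 in GCB, and 24.0 and 23.2 in BMPC, in the unit given next.

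Levels are in RPPM, the reads of a region scaled to all reads in regions of its library. The libraries held 4104875 to 6079018 reads in regions for nB, 907959 to 2280954 for GCB and 5357687 to 8232313 for BMPC, so that 3 reads, taken as the floor, equaled 0.364 to 3.30 RPPM and low GCB values are the least precise. At defining markers, the region nearest the start of Fcer2a, a receptor of naïve B cells, averaged 42.4 in C nB, 14.3 in C GCB and 1.2 in C BMPC. That of Rgs13, a signaling regulator of germinal center B cells, averaged 33.6, 45.7 and 0.364, and that of Tnfrsf17, a plasma cell receptor, averaged 0.392, 1.35 and 20.0. Some other markers of these lists did not follow their label. Of 7 GCB markers 2 rose from nB to GCB in C mice and 1 fell, which was Bcl6 (53.8 to 20.0), and S1pr2 and Fas were highest in BMPC, at 39.3 and 31.2. Of 7 BMPC markers 2 rose from nB to BMPC and none fell, and Irf4 averaged 57.4 in C nB and 44.1 in C BMPC. Lists of other cell types were also measured. Summed over the 5 of 7 T cell markers with a region, levels ranged from 103 to 117 in nB, 26.6 to 44.1 in GCB and 75.8 to 90.3 in BMPC. The same sums were 25.2 to 32.4, 19.7 to 30.6 and 28.1 to 33.9 for 5 of 8 myeloid markers, and 52.7 to 68.3, 43.0 to 61.4 and 70.6 to 81.9 for 4 of 5 erythroid markers. They were 7.35 to 8.86, 9.37 to 17.6 and 4.85 to 9.81 for 3 of 4 natural killer cell markers, and 11.5 to 14.3, 12.6 to 19.7 and 18.4 to 23.5 for 2 of 3 megakaryocyte markers. In C nB the region nearest the start of Cd3d, a T cell marker, averaged 62.3, and that of Klf1, an erythroid marker, 49.5. Much of the T cell and erythroid sums in nB thus came from a single region each. The part of these other cell types in the results was not tested. In bulk libraries, fewer cells with an open region and less accessibility per cell cannot be told apart.

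Stretches of 6 member regions are shown because the results below turn on the regions that hold them, each being 200 bases of mm9 on the plus strand. Capitals mark the cores of motifs searched on both strands: CAGCTG for E2A, GGAAGT for PU.1, TGAAAC for IRF4, ACTTTCAC for PRDM1, ATGCAAAT for Oct2 and CATCTG for ZBTB18. The first comes from the Zbtb20 region that opened most from nB to BMPC and holds an IRF4 core, and the second from a Zbtb20 region open mainly in GCB and holds an Oct2 core. The third is from a Zbtb38 intron region with a PU.1 core, and the fourth lies in Zbtb38 coding sequence and holds an E2A core and 8 CpG. The fifth is from the most distal Zbtb32 region, which lies in an intron of Upk1a, and has E2A, IRF4 and ZBTB18 cores, and the last is from the region upstream of Zbtb18 that closed most and has a PRDM1 core.
Zbtb20 intron, chr16:43396902-43397101: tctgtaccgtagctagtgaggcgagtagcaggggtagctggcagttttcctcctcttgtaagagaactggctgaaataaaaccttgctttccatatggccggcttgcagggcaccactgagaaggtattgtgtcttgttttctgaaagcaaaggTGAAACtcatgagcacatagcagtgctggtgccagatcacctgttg
Zbtb20 intron, chr16:43290362-43290561: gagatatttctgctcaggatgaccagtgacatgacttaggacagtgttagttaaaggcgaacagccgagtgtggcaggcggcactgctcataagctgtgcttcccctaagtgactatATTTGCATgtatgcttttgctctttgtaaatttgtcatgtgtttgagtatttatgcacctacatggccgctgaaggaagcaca
Zbtb38 intron, chr9:96639173-96639372: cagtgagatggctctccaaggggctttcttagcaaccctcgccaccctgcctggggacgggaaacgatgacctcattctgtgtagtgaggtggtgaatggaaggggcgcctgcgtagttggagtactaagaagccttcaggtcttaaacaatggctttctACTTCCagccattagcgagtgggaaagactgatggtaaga
Zbtb38 coding exon, chr9:96586026-96586225: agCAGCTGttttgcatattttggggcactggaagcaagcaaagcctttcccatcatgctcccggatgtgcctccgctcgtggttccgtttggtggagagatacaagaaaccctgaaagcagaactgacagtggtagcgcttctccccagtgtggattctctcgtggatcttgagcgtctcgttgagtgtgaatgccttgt
Zbtb32 distal, chr7:31389532-31389731: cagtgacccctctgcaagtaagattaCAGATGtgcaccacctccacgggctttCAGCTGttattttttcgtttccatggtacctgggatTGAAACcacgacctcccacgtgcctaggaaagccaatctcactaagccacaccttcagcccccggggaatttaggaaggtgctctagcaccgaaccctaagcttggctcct
Zbtb18 distal, chr1:179275731-179275930: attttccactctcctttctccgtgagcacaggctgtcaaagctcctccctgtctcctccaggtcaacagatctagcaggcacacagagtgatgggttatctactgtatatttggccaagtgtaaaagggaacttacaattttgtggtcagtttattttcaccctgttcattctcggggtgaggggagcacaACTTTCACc

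Among the 77 regions, 12 (15.6%) held the Oct2 core and 33 (42.9%) the IRF4 core, against 5.87% and 31.8% of the 65893 regions of the series with sequence. Limiting both to regions of 400 to 800 bases gave 14.6% of 41 member regions and 6.33% of 29066 regions for Oct2, and 48.8% and 34.3% for IRF4. The shares were 31.2% and 32.4% for E2A, 45.5% and 43.2% for PU.1, 3.9% and 2.55% for PRDM1, and 42.9% and 36.1% for ZBTB18. No core contains another, and a match describes the sequence and is not a site of binding. The GC content of the member regions had a median of 46.7%, against 48.9% for all regions, and CpG per 100 bases a median of 1.28 against 1.46.

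Most member regions were away from starts. Of the 77, the table annotates 14 as promoter, 51 as intron, 2 as exon alone and 10 as none of these. Widths ran from 200 to 2454 bp with a median of 552 bp. The Zbtb20 regions spread over 813 kb of chromosome 16, where 8 of the 45 have their nearest start at Tigit, a receptor gene that lies within a long Zbtb20 transcript model. The Zbtb32 regions lie within 16.7 kb of chromosome 7, and 2 of the 4 are in Gapdhs or Upk1a while another covers the start of Kmt2b, so assignment of these regions to Zbtb32 rests on distance.

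The first comparison asked how accessibility of these genes differs between the cell types with Dnmt3 intact. From nB to GCB in C mice, 33 of the 77 regions rose and 4 fell. Here and below, a region rose or fell where limma gave it an adjusted p no higher than 0.01 together with a difference of 1 or more in log2(RPPM + 1). The 48.1% called stood beside 22.7% of all 66177 regions. From nB to BMPC, 37 rose and 7 fell, or 57.1% beside 38.1% of all regions. From GCB to BMPC, 9 rose and 8 fell, or 22.1% beside 30.4%. With quantile normalization that last split was 13 up and 6 down. Without C GCB replicate 1, 11 members were called. Over all regions, 7113 then rose and 9752 fell, where 7474 and 12636 did with every library. With a pseudocount of 5 RPPM the counts from nB were 24 in GCB and 28 in BMPC, or 31.2% and 36.4% of members, and those of all regions fell as well, to 10.3% and 18.6%. The median change of the members from nB was 0.65 in GCB and 0.97 in BMPC, when those of all regions were 0.05 and 0.03. Of the called members 89.2%, 84.1% and 52.9% rose on these 3 steps, beside 62.7%, 47.2% and 37.2% of all called regions. Of the 77 regions, 69 did not lie over a start. Regions of the series not over a start are thus a closer background. They were called at 24.5%, 43.4% and 33.4% on the same steps. These comparisons share libraries. The log2(RPPM + 1) scale understates the change of regions that start near 0.

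**Figure D1:**
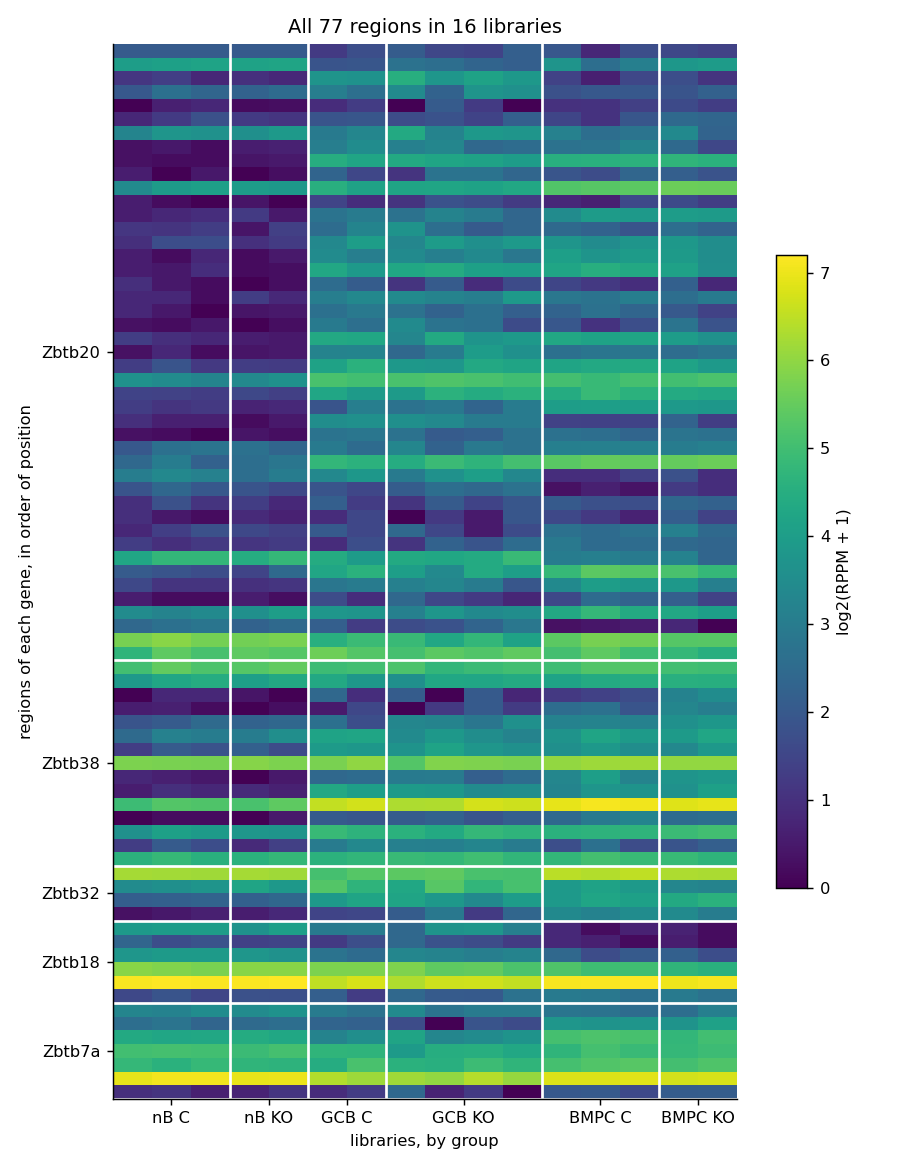
Heat map of log2(RPPM + 1) at the 77 regions, grouped by gene in order of position (rows), in the 16 libraries grouped by cell type and genotype (columns). Many Zbtb20 rows were dark in all 5 nB libraries and lighter in the 6 GCB and 5 BMPC libraries, of C and KO alike.

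Zbtb20 accounted for most of the gains. From nB to GCB in C mice, 24 of its 45 regions rose and 2 fell, and from nB to BMPC 25 rose and 4 fell. The 57.8% and 64.4% called stood beside 22.7% and 38.1% of all regions. Between GCB and BMPC 3 rose and 6 fell, or 20% beside 30.4%. Summed over its 45 regions, accessibility was 231 ± 25.4 (SD, n = 3) in C nB, 461 ± 7.06 (n = 2) in C GCB and 522 ± 22.7 (n = 3) in C BMPC.

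The region with the largest gain, at chr16:43396611-43397392 in a Zbtb20 intron 112880 bp upstream of the nearest annotated start, had 0.244, 0.188 and 0.186 RPPM in the C nB libraries, 21.6 and 17.8 in C GCB, and 22.1, 22.8 and 23.8 in C BMPC. Each nB library thus held a single read there, and all GCB and BMPC libraries were far above them. The log2 change was 4.09 ± 0.23 (SE, limma) from nB to GCB, with an adjusted p of 1.38e-13, and 4.31 ± 0.21 from nB to BMPC, with an adjusted p of 1.07e-15. Between GCB and BMPC it was 0.22 ± 0.23, with an adjusted p of 0.454. As a ratio of scaled reads, 448 reads in C BMPC against 3 in C nB came to 113, with an exact 95% interval from counting error alone of 38.3 to 549.

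The other 5 Zbtb20 regions that led the change from nB to BMPC behaved alike. The region at 43463896-43464674 went from 0.598 ± 0.293 in C nB to 16.2 ± 3.77 in C GCB and 19.8 ± 1.99 in C BMPC. That at 43508320-43509048, annotated as promoter 1224 bp upstream of an internal start, went from 1.63 ± 0.122 to 16 ± 2.81 and 23.9 ± 3.62. In all 5, every C library of GCB and BMPC lay above every C library of nB, and the log2 changes from nB to BMPC ran from 3.21 to 3.71. One of these, at 43661503-43662288, lies 2008 bp from the start of Tigit and rose from 2.68 ± 0.468 to 20.5 ± 3.48 and 35.4 ± 7.07.

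Many of the gains lay together. Grouping Zbtb20 regions by position alone, with neighbors no more than 25 kb apart, gave a largest group of 27 regions across 205 kb (chr16:43335509-43540637). The rule was chosen after the values were seen, and the group is described without a test. Within it, 20 of 27 regions rose from nB to GCB in C mice and 18 rose from nB to BMPC, while of the other 18 Zbtb20 regions 4 rose and 2 fell, and 7 rose and 4 fell. The median level of the 27 was 0.699 in C nB, 7.75 in C GCB and 6.46 in C BMPC. In C nB 22 of them averaged below 2 RPPM, in C GCB 2, and in C BMPC 5. The sum over the group was 59.5 ± 6.72, 269 ± 2.15 and 288 ± 9.83 in these groups, and single libraries of both genotypes ranged from 51.8 to 64.4 in nB, 259 to 270 in GCB and 263 to 301 in BMPC.

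**Figure D2:**
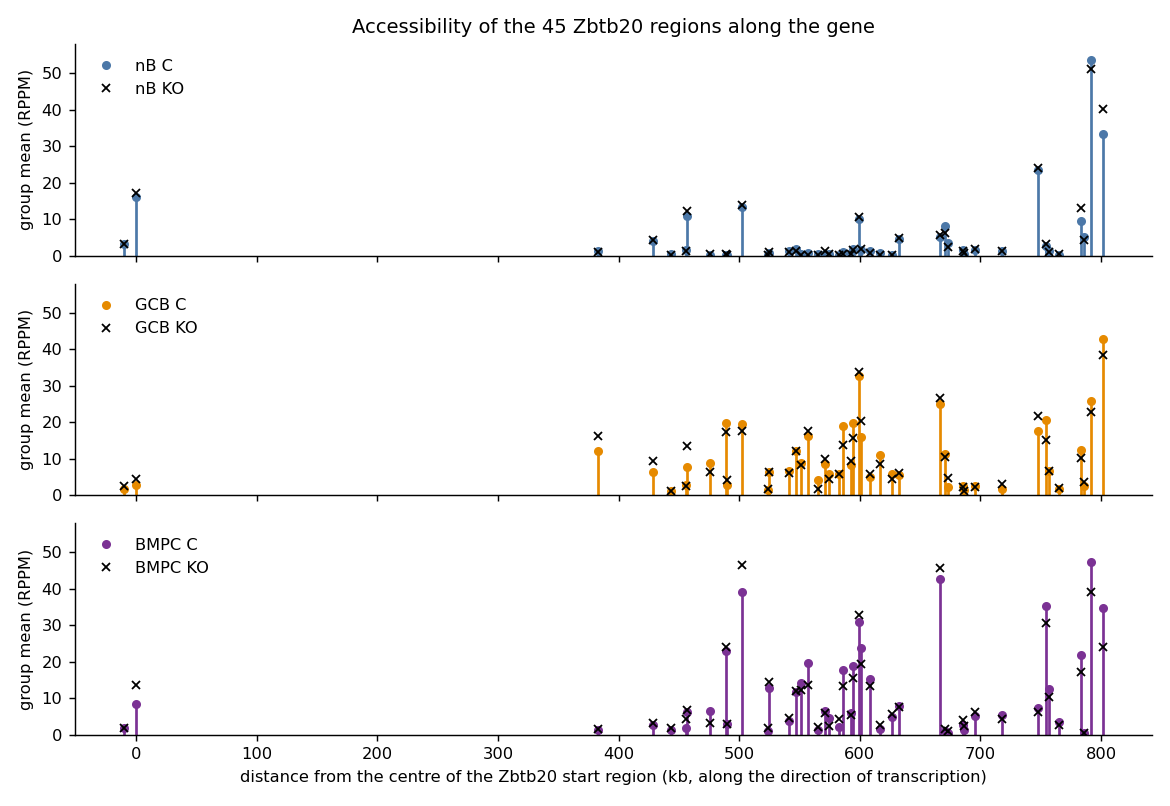
Mean RPPM (vertical axis) of the 45 Zbtb20 regions against their distance in kb from the center of the Zbtb20 start region, for nB, GCB and BMPC from top to bottom. Stems with dots are C means and crosses are KO means. Along the group of 27 neighboring regions most stems were near 0 in nB and taller in GCB and BMPC, whereas the stem at the start itself was 16.1 in C nB and 2.72 in C GCB.

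Not every Zbtb20 region followed this course. Some were open in GCB and low on either side. The region at 43290191-43290733, chosen after its values were seen, had 1.22, 1.51 and 0.744 RPPM in C nB, 12.3 and 11.7 in C GCB, and 1.69, 0.547 and 1.87 in C BMPC. The C GCB libraries stood above all C libraries of nB and BMPC, and the log2 change was 2.61 ± 0.34 from nB to GCB (adjusted p = 5.32e-07) and -2.51 ± 0.34 from GCB to BMPC (adjusted p = 5.68e-07). The region at 43524267-43524651, picked likewise, showed the same order, at 0.699 ± 0.238, 10.9 ± 0.485 and 1.68 ± 0.0361. Others were open in nB and GCB and closed in BMPC. The region at 43578166-43578714, also chosen after its values were seen, averaged 8.18 ± 0.974, 11.2 ± 2.74 and 1.13 ± 0.373, and fell by 2.51 on the log2 scale from GCB to BMPC (adjusted p = 2.75e-07). A few were higher in BMPC than in GCB. Among them, the region at 43515973-43516780, picked likewise, averaged 1.3 ± 0.166, 5.07 ± 3.43 and 15.2 ± 0.243. Its log2 change was 1.55 ± 0.31 from GCB to BMPC (adjusted p = 0.000166).

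The region over a Zbtb20 start, for which the table gives BC002163 and not Zbtb20 as the nearest transcript, moved the other way. At chr16:42907196-42907988 the C nB libraries had 15.1, 16.2 and 17.1 RPPM, C GCB 2.64 and 2.81, and C BMPC 12.2, 5.11 and 7.63. All C GCB libraries were below all C BMPC libraries, which in turn were below all C nB libraries. The log2 change was -2.2 ± 0.27 from nB to GCB (adjusted p = 2.09e-07) and 1.25 ± 0.27 from GCB to BMPC (adjusted p = 0.00031). From nB to BMPC it was -0.95 ± 0.24 with an adjusted p of 0.00134, below the limit on size, and without C BMPC replicate 1 it was -1.24 and passed. This region was thus lowest in GCB, on the same step at which 24 other Zbtb20 regions rose. Regions over any start had a median change of -0.21 from nB to GCB and 0.33 from GCB to BMPC in C mice.

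Zbtb38, the reader of methylated CpG, also gained regions. From nB to GCB in C mice 7 of its 15 regions rose, from nB to BMPC 8 rose, and none fell in either comparison. These were 46.7% and 53.3%, beside 22.7% and 38.1% of all regions called. The intron region at chr9:96640100-96641673 had 29.7, 37.5 and 36.1 RPPM in C nB, 92.8 and 104 in C GCB, and 121, 137 and 130 in C BMPC. No library of one C group overlapped with another group. The log2 change was 1.49 ± 0.13 from nB to GCB (adjusted p = 5.37e-10), 1.88 ± 0.12 from nB to BMPC (adjusted p = 1.3e-13) and 0.39 ± 0.13 from GCB to BMPC (adjusted p = 0.0122).

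A smaller Zbtb38 intron region nearby, at 96639127-96639418, had 0.487, 0.942 and 0.744 RPPM in C nB, 19.4 and 15.5 in C GCB, and 8.58, 12.6 and 12.1 in C BMPC. It was nearly closed in nB and highest in GCB, with log2 changes of 3.42 ± 0.27 to GCB (adjusted p = 1.01e-10) and 2.8 ± 0.24 to BMPC (adjusted p = 1.16e-10). The regions at 96630213-96630973, 96648248-96648659, 96614436-96614802 and 96591067-96591520 rose from nB to BMPC by 2.89, 2.72, 1.91 and 1.88. The start-nearest region of Zbtb38, at 96619625-96620663, was open throughout, at 52.7 ± 1.24 in C nB, 58.2 ± 7.73 in C GCB and 68.7 ± 3.72 in C BMPC, and was not called. Summed over the 15 regions, accessibility was 197 ± 20.1, 326 ± 6.17 and 378 ± 31.4.

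All 4 regions of Zbtb32 were called in at least 1 of the 9 comparisons, beside 60.2% of all regions. The region nearest its start, at chr7:31384892-31385607 and 1003 bp upstream in an intron of Gapdhs, had 3.41, 3.58 and 3.91 RPPM in C nB, 13.6 and 17.3 in C GCB, and 13.5, 17.9 and 16 in C BMPC. GCB and BMPC overlapped with each other and were both above nB. It rose by 1.82 ± 0.24 from nB to GCB (adjusted p = 5.49e-07) and 1.85 ± 0.21 from nB to BMPC (adjusted p = 2.04e-08), and its change from GCB to BMPC was 0.03 ± 0.24. The region at 31389358-31389905 had 0.244, 0.377 and 0.558 in C nB, 1.76 and 1.87 in C GCB, and 9.75, 8.21 and 10.3 in C BMPC. It was highest in BMPC, with a log2 change of 2.9 ± 0.33 from nB (adjusted p = 2.07e-08) and 1.88 ± 0.37 from GCB (adjusted p = 0.000117).

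The third Zbtb32 region, at 31379037-31379814, was highest in GCB. It had 10.2, 11.1 and 12.3 RPPM in C nB, 37.4 and 24.8 in C GCB, and 14, 16.6 and 13.9 in C BMPC, and rose by 1.37 ± 0.24 from nB to GCB (adjusted p = 3.24e-05). The fourth covers the start of Kmt2b, a histone methyltransferase, and was lowest in GCB, at 72.8 ± 1.73, 35.5 ± 4.15 and 86.6 ± 3.94 in C nB, C GCB and C BMPC. Its log2 change was -1.02 ± 0.12 from nB to GCB (adjusted p = 1.02e-07) and 1.27 ± 0.12 from GCB to BMPC (adjusted p = 1.19e-09).

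Zbtb18 lost distal regions. From nB to BMPC in C mice 3 of its 6 regions fell and 1 rose, or 66.7% called beside 38.1% of all regions. Of all 66177 regions, 13330 fell and 11897 rose, and 6 regions are few to set beside them. The region 96403 bp upstream of its start, at chr1:179275527-179276134, had 13.6, 14.7 and 15.1 RPPM in C nB, 6.6 and 7.03 in C GCB, and 0.78, 0.182 and 0.623 in C BMPC. The C groups did not overlap, in the order nB, GCB and BMPC. It changed by -3.36 ± 0.3 from nB to BMPC (adjusted p = 2.13e-10) and -2.37 ± 0.34 from GCB to BMPC (adjusted p = 1.23e-06), while the change of -0.99 ± 0.34 from nB to GCB did not pass (adjusted p = 0.019). The region 33155 bp upstream fell by 1.82 from nB to BMPC and that 59400 bp upstream fell by 1.42. Downstream of the start, the region at 179382074-179382536 rose by 1.19 ± 0.29 (adjusted p = 0.000882). The broad promoter region at 179371283-179373736 stayed open, at 142 ± 5.03 in C nB, 99.2 ± 12.8 in C GCB and 145 ± 6.46 in C BMPC, with no call.

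Zbtb7a had 2 of 7 regions called in any comparison, beside 60.2% of all regions. Its promoter region at chr10:80600053-80601176 had 121, 134 and 133 RPPM in C nB, 81.8 and 69.3 in C GCB, and 113, 112 and 117 in C BMPC. The C groups did not overlap and GCB was lowest, but the log2 change of -0.77 ± 0.1 from nB to GCB (adjusted p = 8.81e-07) was below the limit on size. The region 6529 bp upstream, at 80591744-80592486 and nearest to the transcript of Map2k2, averaged 18.9 ± 0.825, 9.57 ± 1.71 and 33.9 ± 1.43, and rose by 1.73 ± 0.21 from GCB to BMPC (adjusted p = 9.5e-08). Its neighbor at 80591198-80591661 averaged 5.02 ± 0.877 in C nB and 12.5 ± 0.373 in C BMPC, a change of 1.17 ± 0.33 with an adjusted p of 0.00382. That call was lost when C nB replicate 1 or 3 or any C BMPC replicate was left out.

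**Figure D3:**
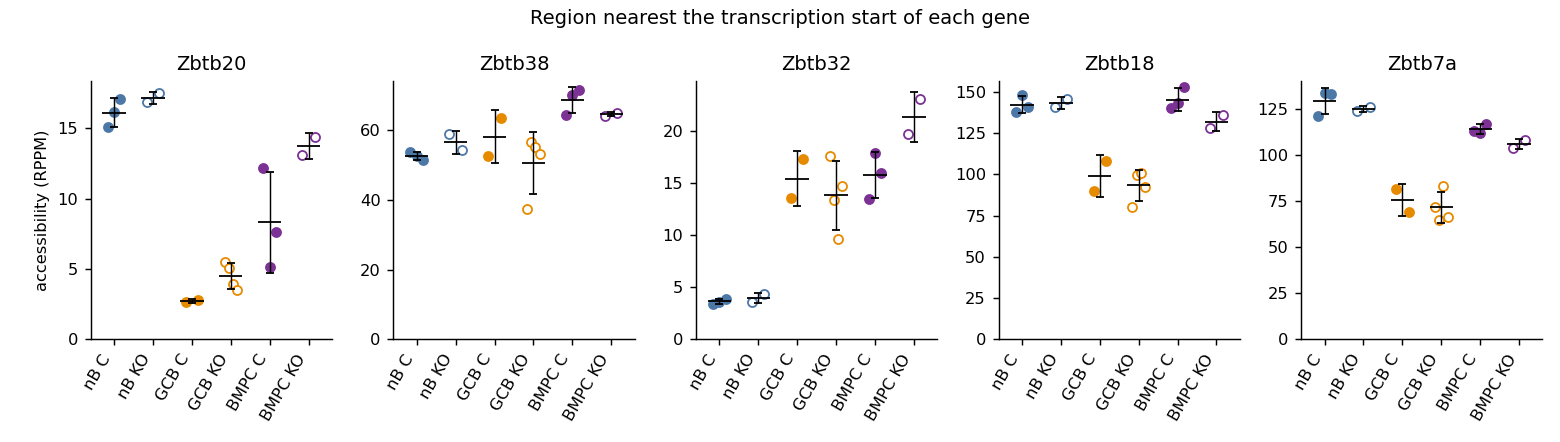
RPPM in each library at the start-nearest region of the 5 genes, by group, with filled dots for C, open dots for KO, and bars for the mean ± SD. Zbtb32 was lowest in nB, Zbtb20, Zbtb18 and Zbtb7a were lowest in GCB, and Zbtb38 varied least between cell types.

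The second comparison asked how the same steps ran in Dnmt3-deficient mice. From nB to GCB in KO mice 33 of the 77 regions rose and 3 fell, or 46.8% beside 26.3% of all regions. From nB to BMPC 36 rose and 6 fell, or 54.5% beside 35.3%. From GCB to BMPC 11 rose and 12 fell, or 29.9% beside 32% of all regions. Without KO BMPC replicate 2, 12 members were called. Over all regions, 5764 then rose and 9505 fell, where 8013 and 13138 did with every library. Of the called members 91.7%, 85.7% and 47.8% rose on these KO steps, beside 70.2%, 52.1% and 37.9% of all called regions. Regions not over a start were called at 28.5%, 39.9% and 35.4%. The C and KO versions of a step share no library. From nB to GCB, 33 member regions were called the same way in both, which was 89.2% of the 37 called in C and 91.7% of the 36 called in KO, and over all regions these shares were 76.9% and 66.5%. From nB to BMPC, 36 were shared, or 81.8% of the 44 in C and 85.7% of the 42 in KO, beside 79.9% and 86.3% over all regions. From GCB to BMPC, 14 were shared, or 82.4% of the 17 in C and 60.9% of the 23 in KO, beside 77.7% and 73.9%. No member was called in opposite directions.

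By gene, the KO counts were near those of C for Zbtb20 and Zbtb38. Zbtb20 had 25 regions up and 2 down from nB to GCB and 24 up and 3 down from nB to BMPC. Its 60% called on each step stood beside 26.3% and 35.3% of all regions. Zbtb38 had 6 and 9 up with none down, or 40% and 60%. Zbtb32 had 2 up in each, or 50%, and Zbtb18 had 3 down from nB to BMPC, also 50%. For Zbtb32 from nB to GCB, 1 region was called the same way in both genotypes, of 3 in C and 2 in KO. For Zbtb18 from nB to BMPC it was 2, of 4 in C and 3 in KO. Zbtb7a had 1 region down from nB to GCB in KO and 0 called in C, and 1 up from nB to BMPC in both. For this gene 1 region was 14.3%. At the Zbtb20 region that opened most, the KO libraries had 0.329 and 0.394 RPPM in nB, 19.8, 17.8, 16.7 and 14.7 in GCB, and 25.1 and 23.1 in BMPC. KO and C libraries overlapped in GCB and BMPC, and the 2 reads in each KO nB library were above the single read of each C one. The log2 change from nB to BMPC in KO was 4.21 ± 0.25 (adjusted p = 2.49e-13). The 27 regions around it summed to 58.8 ± 2.58 (n = 2), 264 ± 4.76 (n = 4) and 282 ± 26.7 (n = 2) in KO nB, GCB and BMPC. At the distal Zbtb18 region KO nB had 11.7 and 15.7 RPPM, KO GCB 4.41, 12.1, 12.7 and 7.69, and KO BMPC 0.607 and 0.187. Here the KO groups of nB and GCB overlapped, unlike those of C, and KO BMPC was again lowest.

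**Figure D4:**
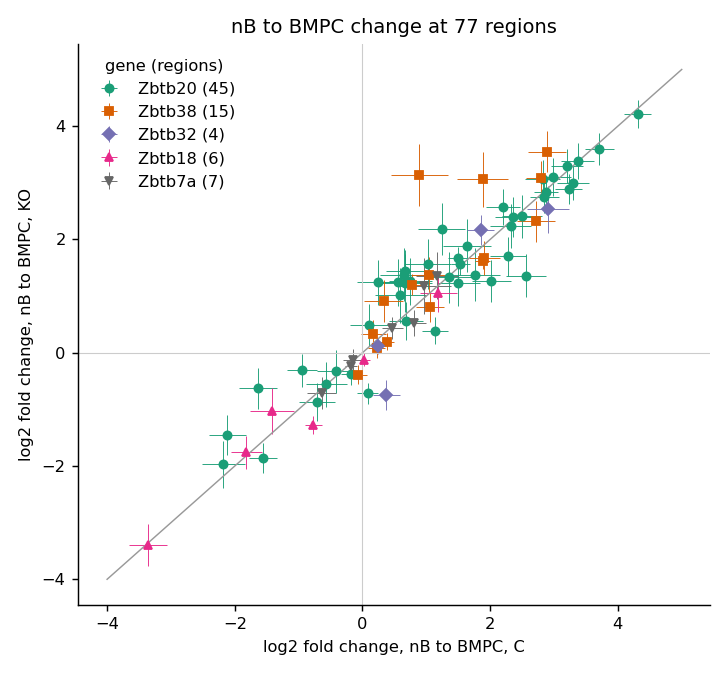
Log2 fold change from nB to BMPC of the 77 regions in C mice (horizontal) and in KO mice (vertical), with bars for the SE of limma and a line of equality. Regions of all 5 genes lay near the line, and the Zbtb38 coding exon region stood above it, at 0.89 in C and 3.14 in KO.

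The third comparison set KO against C within each cell type, the step the genetic design addresses. None of the 77 regions was called by limma in nB, GCB or BMPC, beside 0%, 0.0317% and 0.104% of all regions. An unadjusted p under 0.05 was found for 0%, 13% and 11.7% of members (0, 10 and 9) and for 1.67%, 11.8% and 9.55% of all regions, so the members were near the background. On the recovered reads, edgeR's quasi-likelihood test, its likelihood ratio test and DESeq2 each called 1 member in BMPC and none in nB or GCB. That was 1.3% of members, where these tests called 1.96%, 2.84% and 0.746% of all regions. It was the same region each time, in the last coding exon of Zbtb38. The difference between genotype effects in different cell types was not called by limma at any member for any of the 3 pairs of cell types, with 7, 6 and 4 members at an unadjusted p under 0.05 for BMPC less nB, BMPC less GCB and GCB less nB. These were 9.09%, 7.79% and 5.19% of members beside 5.24%, 8.32% and 6.21% of all regions. EdgeR's quasi-likelihood test and DESeq2 called none either, and the likelihood ratio test called 1, for BMPC less nB, where it called 245 of all regions.

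That Zbtb38 region, at chr9:96585927-96586325, had 0, 0.754 and 0.744 RPPM in C nB and 0.329 and 0 in KO nB, then 4.4 and 0.937 in C GCB and 3.3, 0, 3.07 and 0.699 in KO GCB. In BMPC the C libraries had 1.3, 1.64 and 2.18 RPPM, from 10, 9 and 14 reads, and the KO libraries had 8.14 and 10.3, from 67 and 55 reads. Both KO BMPC libraries were above every other library, and KO and C overlapped in nB and GCB. With limma, the log2 change of KO against C in BMPC was 1.92 ± 0.5 with an adjusted p of 0.0647. On the recovered reads edgeR gave 2.41, with adjusted p of 4.18e-05 (quasi-likelihood) and 9.36e-09 (likelihood ratio), and DESeq2 gave 2.38, with an adjusted p of 0.00467. The genotype effect in BMPC exceeded that in nB by 2.25 (adjusted p = 0.543) and that in GCB by 2.39 (adjusted p = 0.266) with limma, and neither passed. Within KO mice the region rose from nB to BMPC by 3.14 ± 0.55 (adjusted p = 2.51e-05), and within C mice the change was 0.89 ± 0.45 (adjusted p = 0.0942).

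Of the other members, the Zbtb32 region at 31379037-31379814 was next in order of p in BMPC. Its KO BMPC libraries had 8.87 and 8.4 RPPM, below the 14, 16.6 and 13.9 of C, while KO nB had 17.6 and 13.2, above the 10.2, 11.1 and 12.3 of C. In GCB the KO libraries had 18.7, 39.5, 25.9 and 33.6 and overlapped with C. The log2 change of KO against C in BMPC was -0.71 ± 0.24 with an adjusted p of 0.19. The genotype effect in BMPC less that in nB was -1.13 (adjusted p = 0.467) with limma and -1.23 (adjusted p = 0.00705) with edgeR's likelihood ratio test, which alone called it. At the start region of Zbtb20, KO BMPC had 13.1 and 14.4 and C BMPC 12.2, 5.11 and 7.63, a change of 0.73 ± 0.27 with an adjusted p of 0.266.

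**Figure D5:**
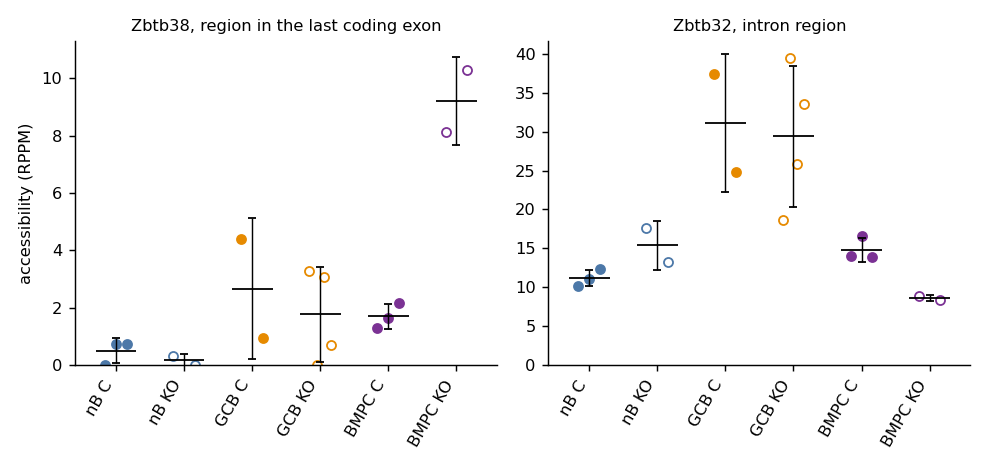
RPPM in each library at the Zbtb38 region in the last coding exon and the Zbtb32 region at 31379037-31379814, by group, with filled dots for C, open dots for KO and bars for the mean ± SD. In BMPC the KO dots lay above C at Zbtb38 and below C at Zbtb32.

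The genes were also set beside relatives and neighbors in the plasma cell program. Another 43 genes carry a Zbtb name or belong to this family. At the region nearest their start, 1 rose and 4 fell from nB to BMPC in C mice, with a median change of 0.07. The 11.6% called stood beside 13.6% of all regions over a start and 43.4% of other regions. Some of these genes, among them Zbtb44, Zbtb7b and Zbtb21, have no region over the start, so neither share is a like background. Zbtb16 rose by 2.45, and Zbtb44, Zbtb7b, Zbtb10 and Zbtb21 changed by -2.56, -1.78, -1.35 and -1.04. From nB to GCB, Zbtb7c rose by 2.51. Bcl6, the repressor that sustains the germinal center program, was among the 4 that fell, with -1.38. Among 13 genes of the plasma cell network at the same kind of region, Ell2, an elongation factor for immunoglobulin transcripts, rose by 1.58 from nB to BMPC, and the B cell factors Pax5, Id3 and Spib changed by -3.44, -1.36 and -1.3. Prdm1 rose by 1.05 from GCB to BMPC. Over all 290 regions of those 13 genes, 59 rose and 108 fell from nB to BMPC (57.6% called), with a median of -0.57, where the 77 regions of the Zbtb genes had 37 up and 7 down.

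The genes whose start-nearest region varied most like that of each member were found by Pearson's r of log2(RPPM + 1) over the 16 libraries and 13325 genes, as a description. For Zbtb20 these were St14 (r = 0.961), Lgals9 (0.959) and Nuak1 (0.949), and for Zbtb32 they were Dmxl2 (0.977), Car5b (0.976) and Angpt2 (0.971). For Zbtb38 they were Foxk1 (0.933), Sod2 (0.927) and Slamf7 (0.921). For Zbtb18 they were Bmp2k (0.985), Sun2 (0.978) and Ccdc117 (0.976), and for Zbtb7a Mief2 (0.981), Phf23 (0.981) and Sertad1 (0.980).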

How the data were processed

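Accessibility was measured by ATAC-seq of sorted cells in 16 libraries of 6 groups, taken from the sample labels. The authors trimmed reads, mapped them to mm9 and merged the MACS2 peaks of the single samples into a union. The submitters' processing notes name Bowtie 1.1.1, Picard 1.127, MACS2 2.1.0.20140616 and edgeR 3.12.1. The deposited values are RPM, the reads of a region scaled to all reads in regions of the library (here RPPM), and 0 per-sample columns were left unused. The table also holds the authors' own comparisons (log2 fold changes, likelihood ratios, p-values and FDR), which were not used. Region annotation is that of the table.

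Dividing by the value of 1 read gave whole reads, within 0.001, for 100% of values. Intervals and floors cover counting error only. Limma 3.58.1 in R 4.3.3 was fitted to log2(RPPM + 1) of all 66177 regions and 16 libraries, with 1 mean per group, a variance trend and Benjamini-Hochberg adjustment over all regions. Calls needed an adjusted p no higher than 0.01 and a log2 change of 1 or more either way. The p-values measure the spread between these libraries. Scripts were tested on simulated data. Alternatives were pseudocounts of 0.1 and 5 RPPM, regions averaging 1 RPPM or more, scaling by TMM or by quantiles, an adjusted p of 0.05, each library left out, a block for GCB pools, and edgeR 4.0.16 and DESeq2 1.42.0 on recovered reads, with library size in regions as the only scaling in edgeR.

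The genes, lists and regions were chosen with earlier results of these data known. For each gene the start-nearest region and up to 6 called regions with the largest nB to BMPC change in C were named, with the 2 of smallest p for KO against C in BMPC, and regions named otherwise are marked in the text. The GCB pools F2 and M1 occur in both genotypes but share only a name. Coding sequence was read from GENCODE annotation of mm9. Some items of the design and marker lists are not reported here.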

Additional observations from a re-analysis of the deposited data

How the results depend on the processing

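Across the named regions, 732 of 750 values under alternatives kept their direction and side of the threshold. Of the rest, 7 passed newly, 10 no longer passed and 1 changed sign. That one was the nB to BMPC change of the Zbtb18 promoter region in C mice. It was 0.03 and became -0.01 without C BMPC replicate 3, the lowest of -0.01 to 0.06 with each library left out. Many of the 750 values had little room to move. Leaving out a library of neither group compared keeps the log2 change, as does the adjusted p of 0.05. Many regions were also named for a large nB to BMPC change in C, the comparison most values concern. The count therefore overstates how stable the results are. With a pseudocount of 5 RPPM the member regions called were 24 from nB to GCB, 28 from nB to BMPC and 8 from GCB to BMPC in C. These were 31.2%, 36.4% and 10.4% of members beside 10.3%, 18.6% and 15.2% of all regions. In KO they were 24, 27 and 9, or 31.2%, 35.1% and 11.7% beside 10.6%, 19.3% and 15.3%. KO against C in BMPC called 1, the Zbtb38 coding exon, or 1.3% beside 0.151%. KO against C in BMPC gave 1 member with each of edgeR's quasi-likelihood test, edgeR's likelihood ratio test and DESeq2, and the genotype effect between cell types gave 1 with the likelihood ratio test. Quantile normalization moved the median change of all regions from 0.050 to -0.062 for nB to GCB in C, 0.124 to -0.067 for nB to GCB in KO, -0.057 to 0.087 for GCB to BMPC in C and -0.035 to 0.084 for GCB to BMPC in KO. Over all regions, the quasi-likelihood test called 1135 up and 159 down for KO against C in BMPC, where limma called 60 and 9. The cause was not tested.

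Leaving out each library in turn gave 33 to 38 calls from nB to GCB in C, 39 to 45 from nB to BMPC in C, 11 to 19 from GCB to BMPC in C, 32 to 39 from nB to GCB in KO, 34 to 48 from nB to BMPC in KO, 12 to 25 from GCB to BMPC in KO, and 0 to 0 for KO against C in each cell type and for the genotype effect between cell types. With the replicate block for GCB pools F2 and M1, KO against C in GCB gave 0 members. The correlations of same-named pools were 0.036 and 0.064. With 2 C GCB libraries each such value has a mirror of opposite sign, so they cannot decide whether pools were paired. The depth of GCB libraries limits regions under 3.30 RPPM.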
